A study of Mus musculus with 10 samples.

Results

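The Vmn1r genes encode vomeronasal type 1 receptors, and their probe sets were taken from an array study of mouse lung. Members were all probe sets whose single gene symbol in the platform annotation was Vmn1r followed by a number, which left out 2 pseudogene probe sets named Vmn1r-ps. This gave 199 probe sets for 199 genes, out of 19572 probe sets with 1 gene symbol. All 199 gene identifiers were found in the RefSeq gene table of assembly GRCm38.p6, with the same symbol and as protein-coding genes.

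Vomeronasal type 1 receptors are G protein-coupled receptors of the sensory neurons of the vomeronasal organ, where they detect pheromones and other small chemical signals such as sulfated steroids. They couple to the G protein subunit encoded by Gnai2, and the cation channel Trpc2 carries the resulting current. In rodents the family has grown by repeated tandem duplication, so that many members sit beside close copies of themselves. Lung is not a tissue in which these receptors are known to act, and the family was therefore described here against the array's own background.

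RNA of whole lung tissue from male C57BL/6J mice, aged 6 weeks per the growth protocol (the treatment text says years), was measured on 10 arrays, 2 in each of 5 groups. Uninjected mice received water, and the other mice were injected with B16F10, an established melanoma line of C57BL/6 origin, and received water, the alkylating drug dacarbazine (DTIC) at 70 mg/kg per day, or daily SQ-diEG, a compound, in doses of 5 or 25 mg/kg, all for 20 days. SQ-diEG is known here by that name only. Each group had 8 mice, but it is not stated if an array carries a pool or 1 animal, and the p-values then reflect no more than array-to-array spread, which may be technical. In whole tissue, fewer cells of a type and less RNA per cell cannot be told apart.

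Levels are deposited log2 values. They depend on how well a probe set's probes bind as well as on RNA, so a level is a position on the array's scale and not an amount of transcript. The reference levels of an array were the median of all gene probe sets, 7.33 to 7.40 over the 10 arrays, the median of 5222 negative-control probe sets, 7.56 to 7.74, the median of 23 background probe sets, 7.17 to 7.26, and the 95th percentile of the negative controls, 10.67 to 11.05. The negative controls thus lay above the gene median on every array. None of 15 lung marker genes, the surfactant genes Sftpa1, Sftpb, Sftpc and Sftpd among them, and none of 5 pigment cell genes of the injected line passed the negative controls' 95th percentile on any array, or the gene median on all 10. Of 6 widely expressed genes, Actb, Gapdh and Eef1a1 lay above the gene median on all 10 arrays. B2m, Rplp0 and Tpt1 did so on only 6, 7 and 8 arrays. Between any pair of arrays the Pearson correlation across the 19572 gene probe sets, a description across genes, was 0.13 to 0.26 (mean 0.213 within groups and 0.203 between groups). Over the 199 members it was 0.04 to 0.51 (0.288 within and 0.281 between groups).

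The sequences shown here are the starts of neighbouring members on chromosome 7. Members with the same start sequence mostly followed each other over the arrays, and whether these bases play a part in the levels was not tested. RefSeq promoters (GRCm38.p6, 250 bases before to 50 after the annotated start) were matched by gene identifier for 176 of the 199 members. Shown are the 250 bases before the start for 4 members with high levels and, for contrast, for Vmn1r172, the member with the lowest mean level. The choice was made after the levels were seen. Capitals mark the longest stretch, 28 bases, that the first 4 have in common.

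Vmn1r250: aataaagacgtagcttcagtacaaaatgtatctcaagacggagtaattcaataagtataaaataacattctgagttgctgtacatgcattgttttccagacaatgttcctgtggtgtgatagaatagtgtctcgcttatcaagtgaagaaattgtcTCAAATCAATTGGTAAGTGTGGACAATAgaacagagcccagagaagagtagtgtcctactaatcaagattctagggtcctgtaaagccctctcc
Vmn1r138: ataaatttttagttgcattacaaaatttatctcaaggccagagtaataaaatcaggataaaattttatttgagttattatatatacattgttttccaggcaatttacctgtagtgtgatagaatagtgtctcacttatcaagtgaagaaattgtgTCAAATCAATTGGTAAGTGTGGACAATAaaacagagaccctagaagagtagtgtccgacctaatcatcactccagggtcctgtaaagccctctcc
Vmn1r101: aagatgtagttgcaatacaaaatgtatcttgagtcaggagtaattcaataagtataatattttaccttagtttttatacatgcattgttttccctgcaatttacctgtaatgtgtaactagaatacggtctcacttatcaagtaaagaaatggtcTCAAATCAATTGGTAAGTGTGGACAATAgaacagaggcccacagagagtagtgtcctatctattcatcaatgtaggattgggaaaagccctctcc
Vmn1r100: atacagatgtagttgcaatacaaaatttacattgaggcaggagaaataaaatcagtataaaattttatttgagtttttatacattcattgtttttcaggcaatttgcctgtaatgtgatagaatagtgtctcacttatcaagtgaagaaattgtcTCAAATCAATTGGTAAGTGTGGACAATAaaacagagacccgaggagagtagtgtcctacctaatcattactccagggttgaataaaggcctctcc
Vmn1r172: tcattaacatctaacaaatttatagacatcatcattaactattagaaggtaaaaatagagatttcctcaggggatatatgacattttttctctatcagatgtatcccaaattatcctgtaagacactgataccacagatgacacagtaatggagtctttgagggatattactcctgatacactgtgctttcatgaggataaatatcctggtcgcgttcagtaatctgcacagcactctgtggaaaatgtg

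The sequence of Vmn1r250 (chr7:22134742-22134991, minus strand) is also, letter for letter, that of Vmn1r114 (chr7:20812187-20812436, minus strand) and Vmn1r126 (chr7:21301468-21301717, minus strand). The sequence of Vmn1r138 (chr7:22028898-22029147, minus strand) is shared by Vmn1r111 (chr7:20703217-20703466), Vmn1r118 (chr7:20912348-20912597) and Vmn1r257 (chr7:22692318-22692567), all on the minus strand. Vmn1r101 (chr7:20442594-20442843, minus strand) shares its sequence with Vmn1r149 (chr7:22438230-22438479, minus strand). For Vmn1r100 (chr7:20417692-20417941, plus strand) and Vmn1r172 (chr7:23658066-23658315, plus strand) no other of the 176 members had the same 300-base promoter. Genes that are no member were not searched for copies. Between Vmn1r250 and Vmn1r138 the 250 bases differed by 41 edits (single-base changes, insertions or deletions), between Vmn1r100 and Vmn1r138 by 29, and between Vmn1r172 and any of the other 4 by 126 to 132. The capital stretch TCAAATCAATTGGTAAGTGTGGACAATA, searched on both strands of these 250 bases, was found in 25 of 176 members (14.2%), all of them in the same run of neighbouring genes, and in 46 of 27025 genes with a promoter in the table (0.17%). Of the 21 genes with it that are no member, 19 also carry a Vmn1r symbol. A match is given as a description of these letters only.

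As a family the members lay a little above the middle of the array. Their median was above the gene median on all 10 arrays, by 0.504 ± 0.168 (SD, n = 10 arrays) on the log2 scale, with a range of 0.27 to 0.83. It was also above the negative-control median on all 10 arrays, by 0.06 to 0.53. For the members outside the chromosome 7 run described below, the median lay above the gene median on every array, but not above the negative-control median. It was below the negative-control median on both uninjected arrays, the first injected water array, the first DTIC array and the second array at 5 mg/kg. On the other arrays it was above. On the first uninjected array the median of these members lay 0.05 above a gene median of 7.37, where the negative-control median was 7.59. On an array 54.8% to 70.9% of members exceeded the gene median, 50.3% to 62.8% exceeded the negative-control median, where 39.0% to 43.9% of all gene probe sets did, and 50 to 80 members lay below the background median. Few reached the upper range of the negative controls. Between 0 and 8 members per array exceeded their 95th percentile, and 23 members (11.6%) did so on at least 1 array, where 2.68% of all gene probe sets did. No member did so on more than 4 arrays.

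**Figure D1:**
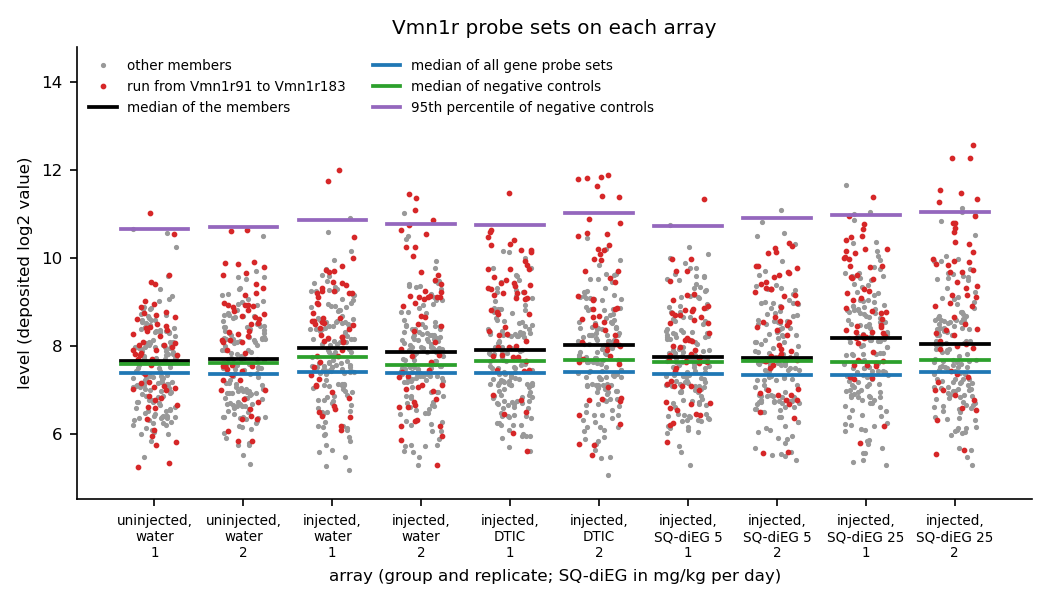
Level (deposited log2 value, vertical axis) of each of the 199 Vmn1r probe sets (points) on each of the 10 arrays (horizontal axis), with the 56 members of the run from Vmn1r91 to Vmn1r183 in red. Bars give the median of the members, of all gene probe sets and of the negative controls and the 95th percentile of the negative controls; the members' median lies above the gene median on every array, and nearly all points lie below the 95th percentile.

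Other chemosensory receptor families give a scale for this offset. The same median difference was 0.423 ± 0.210 (SD, n = 10 arrays) for 122 probe sets of vomeronasal type 2 receptors (Vmn2r), 0.229 ± 0.088 for 1080 of odorant receptors (Olfr) and 0.077 ± 0.213 for 35 of bitter taste receptors (Tas2r). These are descriptions side by side, and no test of the difference between families was made. The members varied between arrays much as other probe sets did, with a median SD over the 10 arrays of 1.04 against 0.94 for all gene probe sets.

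A group of 24 members (12.1%) lay above the gene median on all 10 arrays, where 2.72% of all 19572 gene probe sets did. The share was 8.2% for Vmn2r, 3.8% for Olfr and 0 of 35 for Tas2r. With the negative-control median as the line, 14 members stayed above it on all arrays. The share of all gene probe sets above that line was not counted, so this number has no measure beside it. At the other end, 0 members lay below the gene median on all 10 arrays, against 1.32% of all gene probe sets, and 3 members lay above it on only 1 array. Of these 24, the 10 with the largest mean distance from the gene median all belonged to the chromosome 7 run described next. They were Vmn1r250, Vmn1r114, Vmn1r126, Vmn1r91, Vmn1r149, Vmn1r119, Vmn1r159, Vmn1r118, Vmn1r101 and Vmn1r244, with a mean distance from 3.21 for Vmn1r250 down to 2.09 for Vmn1r244. Vmn1r257 and Vmn1r138, in the same run, had mean distances of 2.19 and 2.11 but lay above the gene median on 9 arrays.

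Members were split into runs along each chromosome, a run ending where more than 5 protein-coding genes of other families lay between neighbours in the RefSeq order. Of the 199 members, 95 are on chromosome 7, 51 on chromosome 6, 35 on chromosome 13, 14 on chromosome 17, 2 on chromosome 4 and 1 each on chromosomes 1 and 18. The run from Vmn1r91 to Vmn1r183 on chromosome 7 was the longest, with 56 members. Their median lay 1.15 ± 0.42 (SD, n = 10 arrays) above the gene median, and that of the other 143 members 0.272 ± 0.113. The run held 14 of the 24 members above the gene median on all arrays, 15 of the 23 that ever passed the negative controls' 95th percentile, and 18 of the 19 members with a mean level over 9, the other being Vmn1r79 elsewhere on chromosome 7. Outside the run 10 of 143 members (6.99%) lay above the gene median on all 10 arrays.

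Within the run the high levels were in its first 40 members, from Vmn1r91 to Vmn1r159, whose mean levels were 7.50 to 10.58 with a median of 8.88. The last 16, from Vmn1r160 to Vmn1r183, had mean levels of 6.48 to 8.51 with a median of 7.50, and none of them lay above the gene median on all arrays. This division of the run was made after the levels were seen. The 25 members with the 28-base stretch, all in the run, had a median mean level of 9.001, against 8.01 for the 30 members of the run whose promoter lacks it and 7.69 for all 151 members whose promoter lacks it. Of the 25, 10 lay above the gene median on all 10 arrays, and of the 151, 12. The stretch was taken from members chosen for their high levels, and 10 of the 25 are those members or copies of them, so the choice largely fixes this difference. The other 15 carriers had mean levels of 7.72 to 9.64 with a median of 8.55, and 3 of them lay above the gene median on all 10 arrays.

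**Figure D2:**
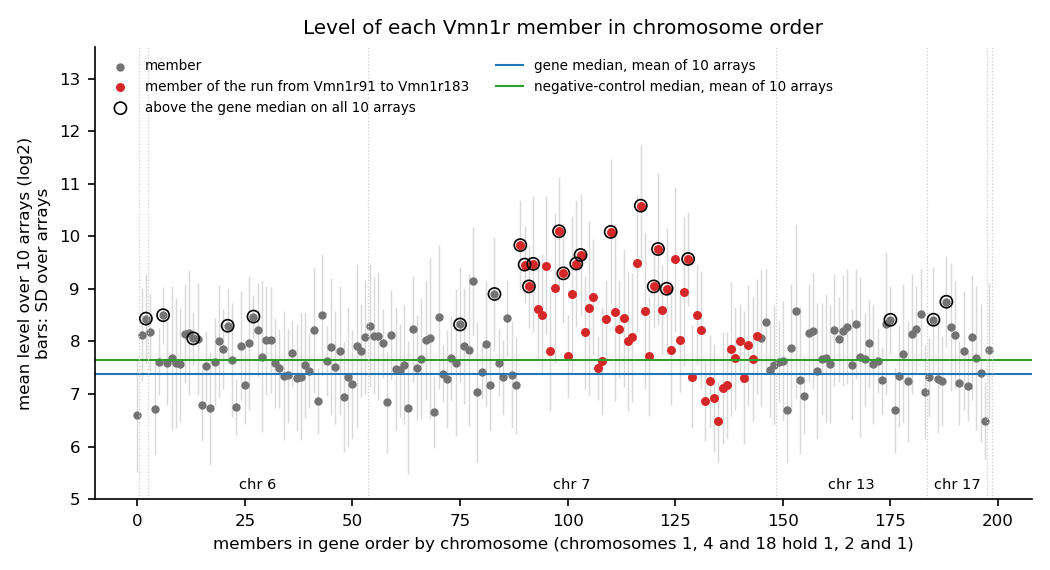
Mean level over 10 arrays (log2, vertical axis; bars are the SD over arrays) of each of the 199 Vmn1r members in gene order by chromosome (horizontal axis). Red points are the 56 members of the run from Vmn1r91 to Vmn1r183. Rings mark the 24 members above the gene median on all 10 arrays, and the lines give the gene median and the negative-control median. Most red points of the first part of the run stand above both lines, up to 10.58 for Vmn1r250.

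Vmn1r250 had the highest mean level of the family, 10.58 ± 1.16 (SD, n = 10 arrays). It measured 9.40 and 10.60 in uninjected mice given water, 9.32 and 11.44 in injected mice given water, 10.63 and 11.41 with DTIC, 8.85 and 10.22 with SQ-diEG at 5 mg/kg, and 11.38 and 12.57 at 25 mg/kg. Both DTIC arrays and both at 25 mg/kg lay above all of those at 5 mg/kg and of uninjected mice, and the injected water arrays overlapped with every other group. On 4 arrays it passed the negative controls' 95th percentile. Vmn1r114, with the same promoter, measured 8.66 and 9.65 in uninjected mice, 8.63 and 11.08 in injected mice given water, 9.92 and 11.39 with DTIC, 9.98 and 9.61 at 5 mg/kg and 10.48 and 11.55 at 25 mg/kg. Vmn1r126, the remaining gene of the set, measured 8.01 and 9.85, 9.19 and 11.37, 10.12 and 11.79, 9.47 and 8.57, and 10.20 and 12.27 in the same order. In all 3 the second arrays of the uninjected, injected water, DTIC and 25 mg/kg groups were above the first. At 5 mg/kg this held for Vmn1r250 only. The members thus largely agreed in how arrays of the same group differed.

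Vmn1r91 is the first gene of the run, and its mean level was 9.83 ± 0.86 (SD, n = 10 arrays). It was highest on the first array at 5 mg/kg, 11.34, and lowest on the second DTIC array, 8.84, which is the reverse of what the copies of Vmn1r138 showed. The lowest mean levels of the family were those of Vmn1r172 (6.48 ± 0.77), Vmn1r237 (6.49 ± 0.73), Vmn1r1 (6.60 ± 1.09), Vmn1r70 (6.65 ± 0.68) and Vmn1r191 (6.69 ± 0.99; SD, n = 10 arrays each). All 5 means lay below the background median, and each member still lay above the gene median on 1 to 4 arrays.

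By the older names in the RefSeq synonyms, 125 members belong to a V1r subfamily and 74 carry no such name. The 74 include most of the chromosome 7 run and had a median mean level of 8.16. Among the named subfamilies the median was 7.64 for 31 V1rc members, 7.67 for 20 V1rh, 7.62 for 18 V1rd, 8.06 for 13 V1re, 7.60 for 11 V1rg, 7.62 for 9 V1ra, 7.77 for 9 V1ri, 7.68 for 6 V1rb and 7.40 for 5 V1rf. Of the members above the gene median on all arrays, 4 were V1rc, 2 each V1re and V1rg, and 1 each V1rd and V1ri. Vmn1r28, a V1rc member, was the steadiest of the family, with 7.81 and 8.19 in uninjected mice, 8.87 and 8.92 in injected mice given water, 7.89 and 8.41 with DTIC, 8.86 and 8.53 at 5 mg/kg and 8.82 and 8.41 at 25 mg/kg.

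A few members known for their ligands were followed through all comparisons, without a full list of such receptors. Vmn1r85 and Vmn1r89, the V1rj receptors known to respond to sulfated steroids, had mean levels of 7.60 ± 0.64 and 7.16 ± 0.92 (SD, n = 10 arrays), above the gene median on 8 and 4 arrays. Vmn1r49, whose synonym is V1rb2, a receptor known for its response to the urinary ketone heptanone, had a mean level of 6.94 ± 1.05, above the gene median on 4 arrays.

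Identical values were more frequent in this family than among gene probe sets at large, with 15 members (7.54%) equal to some other probe set on all 10 arrays to every deposited digit, where 0.439% of all gene probe sets were. Between members there were 3 such pairs. Vmn1r100 and Vmn1r148, both in the chromosome 7 run, measured 7.70 and 8.92 in uninjected mice, 8.56 and 9.10 in injected mice given water, 10.18 and 8.02 with DTIC, 9.71 and 9.29 at 5 mg/kg and 9.82 and 9.15 at 25 mg/kg. Both therefore count among the members above the gene median on all arrays, although they are a single set of values. Vmn1r63 and Vmn1r187 ranged from 5.56 on the first array at 25 mg/kg to 9.15 on the first array of injected mice given water. Vmn1r62 and Vmn1r186 ranged from 5.71 to 8.55. In these last pairs Vmn1r186 and Vmn1r187 have probe sets named for an unplaced scaffold of chromosome 7, and Vmn1r62 and Vmn1r63 are V1rd members placed on the chromosome.

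The other 9 were each identical to 1 or 2 probe sets without a listed gene, 12 such probe sets in all, and none was identical to a control probe set. They were Vmn1r250, Vmn1r126, Vmn1r138, Vmn1r118, Vmn1r244, Vmn1r245, Vmn1r137, Vmn1r249 and Vmn1r155, all in the first part of the run. A value of the members in the identical pairs cannot be given to a single gene, since the same numbers stand for another member. For the other 9 the same numbers stand for a probe set without a listed gene, and which gene that probe set represents is not known.

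Members that were not identical but nearly so showed the same grading. Over the 10 arrays, 9 of 19698 pairs of members that did not share all values had a Pearson correlation above 0.9, and the median over all pairs was 0.028. Those arrays share platform, processing and array-wide shifts, so these correlations are given as a description. The closest pairs were Vmn1r138 with Vmn1r257 (r = 0.99), Vmn1r111 with Vmn1r138 (r = 0.98) and Vmn1r111 with Vmn1r257 (r = 0.98), followed by Vmn1r137 with Vmn1r143 (r = 0.96), Vmn1r101 with Vmn1r149 (r = 0.93), Vmn1r58 with Vmn1r70 (r = 0.93) and Vmn1r114 with Vmn1r126 (r = 0.93). Of these 7 pairs, 5 have promoters without a single difference and 1, Vmn1r137 with Vmn1r143, differs by 4 edits, while Vmn1r58 and Vmn1r70 differ by 162. The remaining pairs above 0.9 were Vmn1r8 with Vmn1r193 (r = 0.91), on different chromosomes, and Vmn1r13 with Vmn1r31 (r = 0.91). The promoters of Vmn1r13 and Vmn1r31 differ by 84 edits.

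Vmn1r138 measured 8.50 and 8.78 in uninjected mice, 8.52 and 10.25 in injected mice given water, 9.75 and 11.84 with DTIC, 7.14 and 9.68 at 5 mg/kg and 10.40 and 9.96 at 25 mg/kg. Vmn1r257 measured 8.43 and 8.81, 8.40 and 10.74, 9.85 and 11.88, 7.09 and 10.14, and 10.14 and 10.13 in the same order. Vmn1r118, with the same promoter as these and Vmn1r111, followed them less closely, with 8.34 on the second array of injected mice given water. The lowest correlation within this set of 4 was 0.74.

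**Figure D3:**
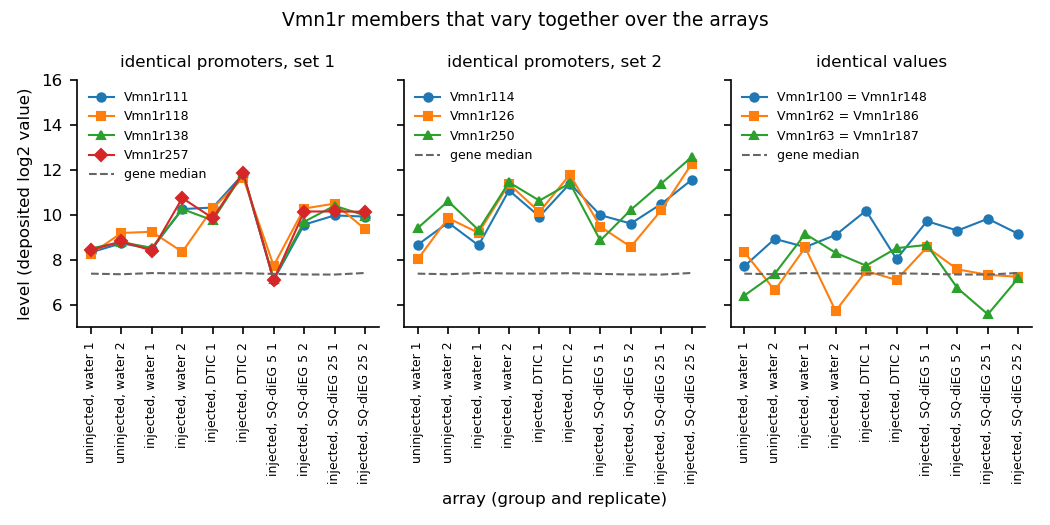
Level (deposited log2 value, vertical axis) on each of the 10 arrays (horizontal axis) of Vmn1r members with identical promoters (left and middle) and of the 3 pairs with identical values (right, 1 line a pair), with the gene median dashed. Vmn1r111, Vmn1r138 and Vmn1r257 lie almost on each other, with their lowest value on the first array at 5 mg/kg and their highest on the second DTIC array.

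Across all pairs with both promoters known, the values agreed more where the promoters, here a measure of how close 2 copies are, were more alike. The median correlation over arrays was 0.80 for 15 pairs with identical promoters, 0.47 for 57 pairs that differ by 1 to 10 edits, 0.20 for 722 pairs with 11 to 60 edits and 0.02 for 14605 pairs with more. Probe sequences were not used here, so whether probe sets of near-identical genes share probes or detect the same transcript was not tested, and the correlation says nothing of the promoter's activity. Pairs share members and so are not independent, and in the last class single pairs ran from -0.93 to 0.93. There were 8 sets of members with identical promoters, holding 19 members, 7 of the sets in that run. The remaining set was Vmn1r47 with Vmn1r48 on chromosome 6, whose promoters are identical and whose correlation over arrays was -0.38.

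**Figure D4:**
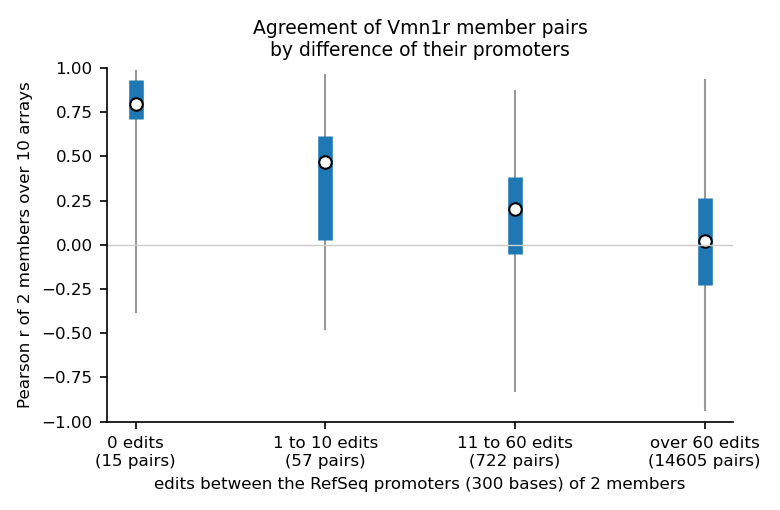
Pearson correlation of 2 Vmn1r members over the 10 arrays (vertical axis) by the number of edits between their 300-base RefSeq promoters (horizontal axis). Circles are medians, thick bars the middle part of the pairs from the lower to the upper quartile and thin lines the full range; the median goes from 0.80 for identical promoters to 0.02 above 60 edits.

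Between groups, no member passed limma's test in any comparison. The test was fitted over all 19572 gene probe sets, with Benjamini-Hochberg adjustment and a threshold of 0.05, and 0% of gene probe sets passed in each comparison as well. Over the 5 groups together, 0 of 199 members passed (smallest adjusted p = 0.836, limma's moderated F test), and 21 members (10.6%) had an unadjusted p under 0.05, where 5.1% of all gene probe sets did. The 5 with the smallest p were Vmn1r121, Vmn1r127, Vmn1r78, Vmn1r113 and Vmn1r117, of which all but Vmn1r78 are in the chromosome 7 run. Values below are means ± SD of 2 arrays, and the standard error of a difference was 0.91 to 1.13 over the members.

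The first comparison set injected against uninjected mice, all given water. No group was injected without cells, so the cells and the injection itself cannot be told apart. Of the 199 members 117 were higher and 82 lower in injected mice, with a median difference of 0.18 (log2), against 0.05 for all gene probe sets, of which 52.2% were higher. The arrays did not overlap, with injected mice higher, for 48 members (24.1%; 18.4% of all gene probe sets) and, with injected mice lower, for 32 (16.1%; 16% of all). Unadjusted p-values under 0.05 numbered 11 on the higher side (5.53% of members, 3.2% of all gene probe sets). On the lower side there were 5 (2.51% of members, 2.59% of all). Vmn1r197 measured 6.25 and 7.83 in uninjected and 10.16 and 9.39 in injected mice, a log2 difference of 2.74 (SE 0.93), the largest of the family here, and did not pass (adjusted p = 0.739, limma). Vmn1r11 and Vmn1r180 were higher by 2.69 (SE 0.94) and 2.67 (SE 0.93) and Vmn1r189, Vmn1r12 and Vmn1r113 lower, at -2.18 (SE 0.97), -2.09 (SE 0.94) and -2.08 (SE 0.94). The V1rb receptor Vmn1r49 averaged 5.66 ± 0.12 in injected and 7.60 ± 0.60 in uninjected mice (SD, n = 2), a difference of -1.94 (SE 0.93). Vmn1r85 and Vmn1r89 differed by -0.56 (SE 0.93) and 0.54 (SE 0.98). Without the first injected water array Vmn1r189 went to -1.11 and Vmn1r113 to -1.10, and without the first uninjected array Vmn1r85 went to -0.11.

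The second comparison set DTIC against water in injected mice, and shares the injected water arrays with the first. Members were higher for 114 and lower for 85, with a median of 0.15 against -0.01 for all gene probe sets, of which 49.4% were higher. Arrays did not overlap for 33 members on the higher side (16.6%; 16.2% of all) and 33 on the lower (16.6%; 16.2% of all). There were 4 unadjusted p-values under 0.05 on the higher side (2.01% of members, 2.28% of all gene probe sets). On the lower side there were 6 (3.02% of members, 2.64% of all). Vmn1r117 measured 9.21 and 10.64 with water and 7.76 and 5.77 with DTIC, a difference of -3.16 (SE 0.97; adjusted p = 0.913, limma). Vmn1r180 and Vmn1r198 were lower, at -2.50 (SE 0.93) and -2.33 (SE 0.97), and Vmn1r113, Vmn1r118 and Vmn1r49 higher by 2.28 (SE 0.94), 2.17 (SE 0.97) and 2.11 (SE 0.93). Vmn1r85 and Vmn1r89 differed by -0.28 and 0.14. Without the first injected water array the difference for Vmn1r113 was 1.30. None passed, the smallest adjusted p of a member being 0.913.

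SQ-diEG was then compared at each dose with the same injected water arrays. At 5 mg/kg 96 members were higher and 103 lower, with a median of -0.05 and the same median, -0.05, for all gene probe sets, of which 48% were higher. Arrays did not overlap for 28 members on the higher side (14.1%; 15.5% of all) and 36 on the lower (18.1%; 18% of all). The V1ra member Vmn1r48 averaged 9.90 ± 0.57 at 5 mg/kg and 7.14 ± 0.07 with water (SD, n = 2), a difference of 2.76 (SE 0.92; adjusted p = 0.923, limma). Vmn1r194 and Vmn1r80 were higher by 2.48 (SE 0.99) and 2.42 (SE 0.99), and Vmn1r193, Vmn1r197 and Vmn1r207 lower, at -2.75 (SE 1.03), -2.37 (SE 0.93) and -2.28 (SE 0.92). Vmn1r49 differed by 1.90 (SE 0.93), Vmn1r85 by -0.41 and Vmn1r89 by 0.18. Vmn1r194 rested on the second array at 5 mg/kg, without which its difference was 0.67, and Vmn1r80 was at 1.56 without the first.

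At 25 mg/kg 119 members were higher and 80 lower, with a median of 0.22 against -0.02 for all gene probe sets, of which 49% were higher. Arrays did not overlap for 38 members on the higher side (19.1%; 16.6% of all) and 22 on the lower (11.1%; 16.9% of all). Unadjusted p-values under 0.05 numbered 12 on the higher side (6.03% of members, 2.63% of all) and 5 on the lower (2.51% of members, 2.68% of all). At 5 mg/kg they numbered 6 (3.02% of members, 2.36% of all) and 7 (3.52% of members, 2.93% of all). Vmn1r78, a V1rg member, measured 6.97 and 6.80 with water and 11.04 and 9.64 at 25 mg/kg, a difference of 3.46 (SE 0.94; adjusted p = 0.907, limma). Vmn1r127 differed by 3.52 (SE 0.98) and Vmn1r55 by 2.59 (SE 0.96). On the lower side were Vmn1r13 at -2.88 (SE 0.94) and Vmn1r31 at -2.37 (SE 0.93), which followed each other over all arrays (r = 0.91), and Vmn1r187, identical to Vmn1r63, at -2.35 (SE 0.95). Vmn1r85, Vmn1r89 and Vmn1r49 differed by 0.59, 0.20 and 0.47. Without the first array at 25 mg/kg Vmn1r55 was at 1.36 and Vmn1r187 at -1.55, and without the second Vmn1r127 was at 2.16 and Vmn1r85 at 0.08.

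**Figure D5:**
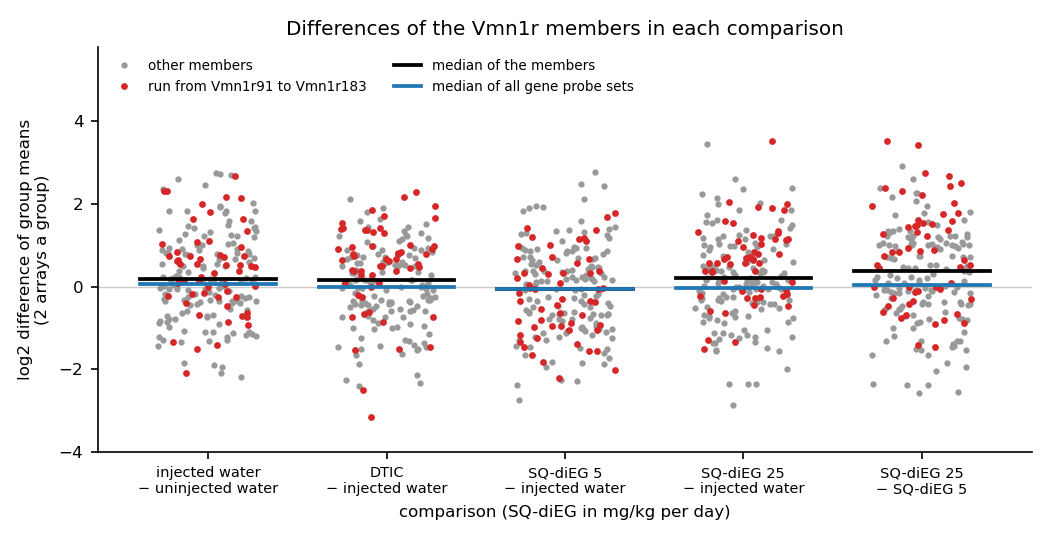
Difference of group means (log2, 2 arrays a group, vertical axis) of each of the 199 Vmn1r members in the 5 comparisons (horizontal axis), with the run from Vmn1r91 to Vmn1r183 in red and the medians of the members and of all gene probe sets as bars. No member passed limma's test, and the members' median lay between -0.05 and 0.37.

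The fifth comparison set the doses of SQ-diEG against each other. At 25 against 5 mg/kg 116 members were higher and 83 lower, with a median difference of 0.37 against 0.03 for all gene probe sets, of which 51.2% were higher. The arrays did not overlap for 52 members on the higher side (26.1%; 17.8% of all) and 23 on the lower (11.6%; 15.7% of all). Unadjusted p-values under 0.05 numbered 17 on the higher side (8.54% of members, 2.9% of all) and 6 on the lower (3.02% of members, 2.31% of all). Vmn1r121 measured 5.81 and 7.93 at 5 mg/kg and 10.11 and 10.68 at 25 mg/kg, a difference of 3.53 (SE 0.94; adjusted p = 0.878, limma). Vmn1r127 and Vmn1r78 were higher by 3.43 (SE 0.98) and 2.93 (SE 0.94), and Vmn1r194, Vmn1r48 and Vmn1r67 lower, at -2.55 (SE 0.99), -2.38 (SE 0.92) and -2.38 (SE 0.94). Vmn1r85, Vmn1r89 and Vmn1r49 differed by 1.01 (SE 0.93), 0.02 (SE 0.98) and -1.43 (SE 0.93). Without the second array at 5 mg/kg Vmn1r194 went to -0.74. Without the second array at 25 mg/kg Vmn1r67 went to -1.29, Vmn1r127 to 2.07 and Vmn1r85 to 0.49, and without the first Vmn1r49 went to -0.59. The sign for Vmn1r89 turned under median centring and under quantile normalization.

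By its median, the chromosome 7 run varied more over the 10 arrays than the other members did (SD 0.42 against 0.11). The run also differed between arrays of the same group. Its median lay above the gene median by 0.49 and 0.95 in uninjected mice, 1.08 and 1.09 in injected mice given water, 1.71 and 1.36 with DTIC, 0.57 and 1.05 at 5 mg/kg and 1.44 and 1.72 at 25 mg/kg. The DTIC and 25 mg/kg arrays were thus the highest, and the groups at 5 mg/kg and without injection overlapped. For the other 143 members the values were 0.05 and 0.22, 0.24 and 0.32, 0.19 and 0.35, 0.34 and 0.26, and 0.47 and 0.28 in the same order. In the run the median difference was 0.48 between injected and uninjected mice, 0.65 with DTIC, -0.24 with SQ-diEG at 5 mg/kg and 0.65 at 25 mg/kg, and 0.85 between the doses, against 0.14, -0.02, 0.04, 0.12 and 0.20 for the other members. Members of the run with identical values or nearly equal profiles are not independent measurements, and this difference between run and other members was not tested. The hybridization controls, transcripts added to the hybridization mix, averaged 8.47 and 8.68 on the uninjected arrays, 10.28 and 10.99 on the injected water arrays, 9.22 and 10.28 with DTIC, 9.10 and 10.15 at 5 mg/kg and 10.27 and 10.92 at 25 mg/kg. Their part in the levels of the family was not tested.

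Other genes of vomeronasal neurons lay in the middle of the array's range. Of a list of 29, 26 had a probe set, with mean levels of 6.29 to 8.53 and a median of 7.23. None lay above the gene median on all 10 arrays, the neural transcription factor gene Lhx2 lay below it on all 10, and only Nrp2, an axon guidance receptor, passed the negative controls' 95th percentile, on 1 array. Gnai2, which encodes the G protein subunit these receptors couple to, had a mean level of 7.24 ± 0.79, and Omp, the olfactory marker protein of mature sensory neurons, 6.72 ± 0.73 (SD, n = 10 arrays). None of the 26 passed limma's test in any comparison. They were higher for 11, 7, 11 and 14 in the comparisons of injection, DTIC, SQ-diEG at 5 and SQ-diEG at 25 mg/kg, in that order, and for 13 between the doses. Among the 4 genes of smallest p in each comparison, the widest differences were those of Adcy2, an adenylyl cyclase, at 2.14 (SE 1.04) for SQ-diEG at 25 mg/kg against water and Neurog1, a neuronal transcription factor, at 1.97 (SE 0.93) between the doses.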

How the data were processed

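The submitters' processing notes name RMA and, as software without versions, Transcriptome Analysis Console and Affymetrix Expression Console. The deposited values are log2 levels, 1 per probe set and array, and were used without further normalization. The sources describe a 3' labelling kit and 3' arrays, whereas the probe set names have the form of whole-transcript designs. The table held 28846 probe sets, of which 6640 were controls, 19572 had 1 gene symbol, 0 had several and 2634 non-control ones had none. Group-means models over the 10 arrays were fitted to all gene probe sets with limma 3.58.1 in R 4.3.3 (lmFit and eBayes, 5 residual and 39.8 prior degrees of freedom, Benjamini-Hochberg), without a filter, so that every member was tested, and the code was tested on simulated data. Depth has no counterpart on arrays, and 2 arrays a group limit the precision. The members, lists and comparisons were chosen with earlier results of these data known. Named are members with identical values, the 10 farthest above the gene median among those above it on all arrays, the 5 highest and lowest means, the 3 smallest p in each direction per comparison, the 5 smallest of the F test, and Vmn1r49, Vmn1r85 and Vmn1r89. Others (such as Vmn1r28, Vmn1r47, Vmn1r58, Vmn1r79, Vmn1r111, Vmn1r137, Vmn1r143, Vmn1r257) were named after their values were seen.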

Additional observations from a re-analysis of the deposited data

How the results depend on the processing

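No member passed under any of the alternatives tried (quantile normalization, median centring, a filter at the 40th percentile on at least 2 arrays, 1 probe set per gene, eBayes with trend and robust, only the groups compared, each array left out). With the replicate number as a block 0 members passed in every comparison. Across the gene probe sets same-numbered arrays did not deviate together (correlations of -0.02 to 0.05 over 10 pairs of groups). The hybridization controls, however, averaged higher on the second array than on the first in every group. Whether the numbers mark a pairing or a batch was therefore not settled. A group left with 1 array is assumed to vary like the others. Of 484 recomputed differences of named members, 470 kept their sign. Many of these could not change, so this count is no measure of stability. The filter, 1 probe set per gene, trend and robust, only the groups compared and the replicate block return the same difference of group means. With single arrays left out, 21 differences moved by at most 1.5 times, 15 moved by more and 8 turned sign. Vmn1r89 between the doses went to -0.000448 with median centring and -0.0318 with quantile normalization. With single arrays left out Vmn1r89 ranged from -0.75 to 1.82 for injection, -1.14 to 1.43 for DTIC, -1.11 to 1.46 for 5 mg/kg, -1.09 to 1.48 for 25 mg/kg and -0.83 to 0.87 between the doses, Vmn1r85 from -0.86 to 0.30 for DTIC and -0.83 to 0.00855 for 5 mg/kg, and Vmn1r49 from -0.37 to 1.31 for 25 mg/kg. The count above the reference on all arrays was 14 against the negative-control median, 0 against the negative controls' 95th percentile and 10 without the chromosome 7 run, and 24 to 29 with an array left out; with members of identical values or promoters counted once, 9.73% of 185 remained above. The count below was 2 against the negative-control median, 176 against the 95th percentile, and 0 to 1 with an array left out (uninjected water 1, SQ-diEG 5 mg/kg 2 and SQ-diEG 25 mg/kg 2 each give 1). For the negative-control references the share of all gene probe sets above on all arrays was not counted, nor that below the negative-control median. The 95th percentile was passed on at least 1 array by 11.6% of members and 2.68% of all gene probe sets. The family's offset was 0.272 without the run, and 0.467 to 0.529 with an array left out. The last 2 alternatives on members (the run, copies) were chosen after seeing the data; the causes of these moves were not tested, other than that fewer members or a higher reference enter by construction.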
